A study of Mus musculus with 8 samples.

Results

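The genes described here are 39 genes of DNA replication, taken by name from the table of 55421 genes of the series because they encode the proteins that license origins, unwind DNA, synthesize and join the new strands, and supply nucleotides in S phase. Each of the 39 matched 1 row of the table, and all 39 passed the filter on low counts that left 20477 genes for testing. The libraries came from primary cultures of undifferentiated spermatogonia, the mitotic cells that sustain sperm production, made from testes of 6-day-old mouse pups of C57BL/6XDBA/2 F1 hybrid background and grown on irradiated mouse embryonic fibroblasts with GDNF and bFGF. The 4 groups, with 2 libraries each, shared this background, feeder layer and a treatment of 2 days. Veh was the vehicle control in complete medium, RA received 100 nM retinoic acid in complete medium, NR was kept in nutrient restriction medium made of 90% Earle's Balanced Salt Solution (EBSS) and 10% complete medium, and NRRA received retinoic acid in that restricted medium. By the paper's recipe, restricted medium also holds less of the GDNF, bFGF and serum of complete medium. Their part in NR and NRRA cannot be told apart from that of nutrients. No group carried a genetic alteration, and the feeder cells were not removed by a step named in the sources used here, so that each library holds RNA of both cell types.

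Replication starts at origins that are licensed before S phase. The origin recognition complex (ORC) and *Cdc6* bind origins, *Cdt1* brings in the ring-shaped helicase made of *Mcm2* to *Mcm7*, and geminin, the product of *Gmnn*, blocks *Cdt1* so that an origin is not licensed again. In S phase *Cdc45* and the GINS complex join the ring and activate it, DNA polymerase alpha with its primase starts each strand, and polymerases delta and epsilon extend it on the sliding clamp *Pcna*. E2F transcription factors are known regulators of many of these genes at the transition from G1 to S phase. Spermatogonia replicate in mitotic cycles, and a premeiotic S phase precedes entry into meiosis.

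Promoter sequence was examined for letters bound by E2F factors, since the members share a phase of expression. RefSeq promoters on GRCm38.p6, 250 bases before to 50 after the start, were found for 31 of the 39 genes. The 8 letters TTTCCCGC, TTTCGCGC, TTTGCCGC or TTTGGCGC, read on both strands, occurred in 13 of these 31 genes (41.9%), beside 2.6% of 27025 genes and 2.26% of 32851 promoters in the same RefSeq table. The shorter TTCCCGC and TTGGCGC, the first being the end of 1 of the 8-letter forms and the second of another, occurred in 16 of the 31 (51.6%) and in 7.79% of all genes. The cell cycle homology region letters TTTGAA and TTCGAA occurred in 8 (25.8%), beside 21.7% of all genes, and the box CCAAT, which can share letters with TTGGCGC on the opposite strand, in 20 (64.5%), beside 41.1%. The stretches from 180 to 11 bases before the RefSeq start are shown for a pair of helicase subunits, for *Pola1*, whose values ran against most of the list, and for *Rrm1*, which has only a 7-letter match in this stretch. Capitals mark the 8- and 7-letter E2F matches on either strand. The positions are chr8:75109329-75109498 on the plus strand for *Mcm5*, chr1:128359716-128359885 on the minus strand for *Mcm6*, chrX:93632166-93632335 on the minus strand for *Pola1* and chr7:102441515-102441684 on the plus strand for *Rrm1*.
Mcm5: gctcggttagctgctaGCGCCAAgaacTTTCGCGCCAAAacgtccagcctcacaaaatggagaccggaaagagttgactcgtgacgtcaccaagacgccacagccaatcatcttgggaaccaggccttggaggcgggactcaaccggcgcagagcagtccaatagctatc
Mcm6: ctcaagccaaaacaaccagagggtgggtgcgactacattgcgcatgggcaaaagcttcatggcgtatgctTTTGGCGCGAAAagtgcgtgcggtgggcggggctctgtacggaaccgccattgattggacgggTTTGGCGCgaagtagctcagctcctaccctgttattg
Pola1: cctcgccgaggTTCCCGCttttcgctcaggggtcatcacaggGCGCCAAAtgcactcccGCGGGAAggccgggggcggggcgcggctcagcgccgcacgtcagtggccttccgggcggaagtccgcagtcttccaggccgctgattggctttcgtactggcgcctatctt
Rrm1: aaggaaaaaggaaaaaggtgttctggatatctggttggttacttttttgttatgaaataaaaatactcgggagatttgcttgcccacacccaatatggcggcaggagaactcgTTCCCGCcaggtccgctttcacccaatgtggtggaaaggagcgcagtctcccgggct
These matches are letters in a window, and binding was not measured. Of the 13 genes with the 8 letters, 9 were lower in NR than in Veh, and of the 18 matched genes without them 16 were lower.

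Total counts lay between 19261333 and 30023585 per library, and values are given as CPM, the counts of a gene scaled to a common library total. All 39 genes had at least 173 counts in every library. Germ cell markers were present throughout, with *Ddx4* between 131 and 190 CPM. The 7 markers of undifferentiated spermatogonia summed to 869 and 805 CPM in the Veh libraries, 327 and 322 under RA, 730 and 744 under NR and 153 and 154 under NRRA. Both libraries lay below both Veh libraries for 7 of the 7 in RA and 6 in NRRA. In NR 3 lay below and 2 (*Zbtb16* and *Id4*) above. The 8 fibroblast markers summed to 9154 and 9417 CPM in the Veh libraries and 8220 and 7597 under RA. They summed to 19869 and 20889 under NR and 18610 and 18059 under NRRA. Both libraries lay above both Veh libraries for 6 of the 8 in NR and in NRRA. *Thy1* lay below both Veh libraries in NR and in NRRA, and *Lum* did so in NRRA. The collagen genes had the highest values, with *Col1a1* at 3758 and 3719 CPM in Veh and 7619 and 8101 under NR. No marker of either list was at 0. The 6 germ cell markers went from a sum of 766 and 795 CPM in Veh to 971 and 946 under NR and 1019 and 1039 under NRRA. Of these 6, 5 were above both Veh libraries in both NR libraries, and in NRRA 3 were above and 3 (*Dppa3*, *Mael* and *Tdrd1*) below. The part of the fibroblast RNA in the differences below was not tested. In such bulk libraries fewer replicating cells and less of a transcript per cell cannot be told apart.

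**Figure D1:**
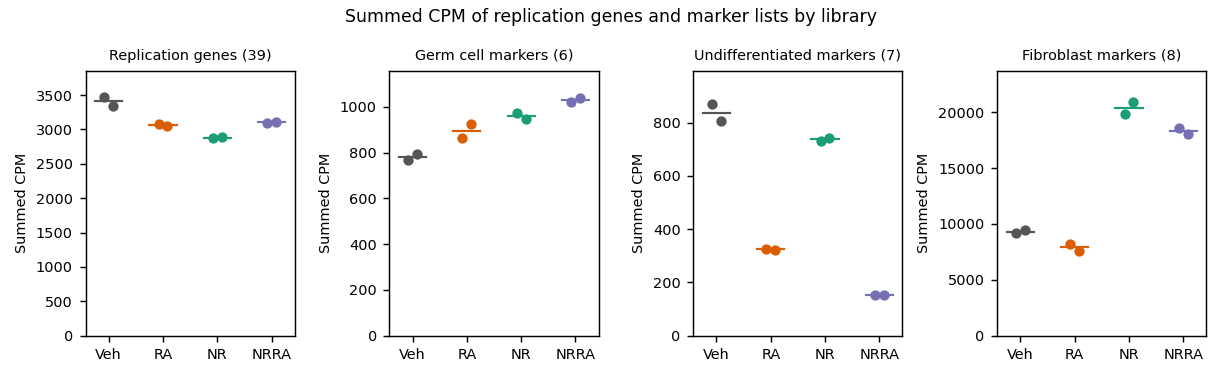
Summed CPM of the 39 replication genes and of 3 marker lists in each library, with points for libraries and lines for the mean of 2. The replication genes are lowest in NR (2875 and 2888 CPM) and highest in Veh, while the fibroblast markers are highest in NR.

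Most of the replication genes were lower after nutrient restriction alone, and the effects were modest. Summed over the 39 genes, expression was 3475 and 3348 CPM in the Veh libraries and 3078 and 3055 under RA. It was 2875 and 2888 under NR and 3093 and 3115 under NRRA, so that all 3 treatments lay below both Veh libraries. *Mcm2* to *Mcm7* held 1280 and 1239 CPM of this sum in Veh and 1036 and 1042 under NRRA. Under NRRA the sums for helicase activation and nucleotide supply also lay below Veh. Those for licensing, clamp and loader, polymerases and strand joining overlapped Veh. At an adjusted p under 0.05 in edgeR's quasi-likelihood test over all tested genes, 28 of 39 were lower in NR than in Veh (71.8%), where 22.2% of all tested genes were lower. Another 2 were higher, where 21.7% of all genes were higher. The median log2 fold change of the 39 was -0.25, beside 0.01 for all tested genes, and 36 of the 39 had a negative value. The members were more abundant than most genes, with a median of 52.5 CPM against 12.6, and among the 11144 genes at least as abundant as the lowest member 33.5% were lower in NR.

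Retinoic acid in complete medium moved fewer of the genes. In RA, 15 of 39 were lower than in Veh (38.5%), beside 23.4% of all tested genes and 35.2% of the 11144 abundant ones, and 2 were higher, beside 19.8%. The share of lower members was therefore close to that of genes of their abundance, and it fell to 9 members when Veh replicate 1 was left out. In NRRA, 18 were lower than in Veh (46.2%) and 5 higher, beside 28.7% and 30.1% of all tested genes and 40.9% lower among the abundant ones. The median log2 fold change was -0.09 in RA and -0.08 in NRRA, the latter being -0.16 without Veh replicate 2 and -0.15 with each library's trend with GC content and gene length removed.

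No member changed by 2-fold or more in these comparisons. Of all tested genes, 7.49% passed with at least that fold in RA vs Veh, 8.29% in NR vs Veh and 15.9% in NRRA vs Veh. For the members this count was 0 in edgeR and in DESeq2, and also 0 at an unadjusted p under 0.05 in both, and the value farthest from 0 was -0.89 for *Rrm2* in NR. The RA, NR and NRRA comparisons share the Veh libraries, so that they are not independent of each other.

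**Figure D2:**
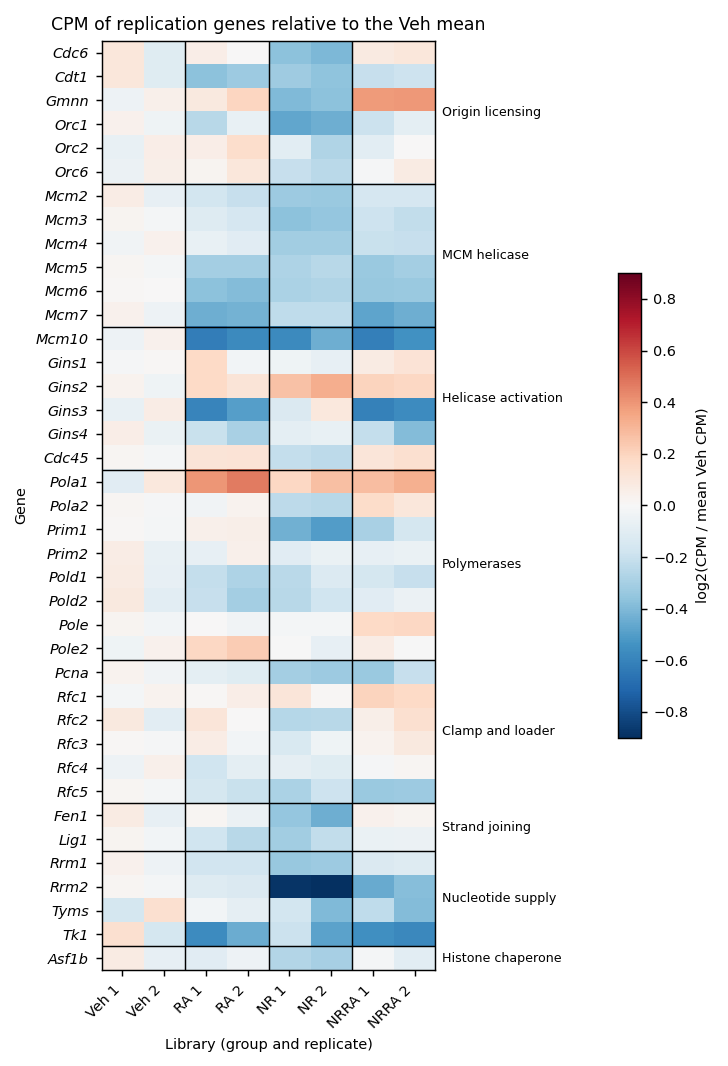
log2 ratio of CPM to the mean of the Veh libraries (colour, blue lower and red higher) for the 39 genes (rows, by role) in the 8 libraries (columns). The NR columns are blue for most rows, *Rrm2* is the darkest of them, and *Gmnn* turns red in both NRRA libraries.

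Origin licensing genes were all lower in NR, and most did not pass against Veh in NRRA. All 6 passed as lower in NR than in Veh, with log2 fold changes from -0.45 to -0.18, against 1 of 6 in RA and 1 of 6 in NRRA. Among the 11144 abundant genes 33.5% were lower in NR, 35.2% in RA and 40.9% in NRRA. *Cdc6*, the ATPase that binds origins with ORC (chr11:98907801-98923940), had 34.8 and 30.1 CPM in the Veh libraries, 33.7 and 32.4 under RA, 25.1 and 24.5 under NR and 34.2 and 34.8 under NRRA. Both NR libraries lay below all 6 others. The log2 fold change was -0.39 (SE 0.075, adjusted p = 0.000119) in NR vs Veh and 0.48 (SE 0.0708, adjusted p = 3.57e-06) in NRRA vs NR. *Orc1*, the ORC subunit whose level follows the cell cycle, had 43.7 and 41.3 CPM in the Veh libraries, 35.7 and 40.6 under RA, 30.7 and 31.4 under NR and 37.1 and 39.9 under NRRA. It was again lowest in NR, by -0.45 on the log2 scale (SE 0.0711, adjusted p = 9.11e-06). *Orc2* and *Orc6*, further ORC subunits, were lower in NR by smaller margins (-0.18 and -0.23). Of *Orc2* 29.8% of the exon bases overlap *Nif3l1* on the opposite strand, and *Nif3l1* itself was lower in NR than in Veh (-0.38, SE 0.0645).

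The licensing factor *Cdt1* and its inhibitor *Gmnn* moved differently with retinoic acid. *Cdt1* (chr8:122568015-122573554) had 98.4 and 85.0 CPM in the Veh libraries, 71.0 and 73.0 under RA, 73.5 and 71.5 under NR and 79.3 and 80.6 under NRRA, so that both Veh libraries were above all others. Against Veh it differed on the log2 scale by -0.35 under RA (SE 0.0594, adjusted p = 2.83e-05), -0.34 under NR (SE 0.0594, adjusted p = 3.57e-05) and -0.20 under NRRA (SE 0.0579, adjusted p = 0.00446). *Gmnn* (chr13:24751845-24761923, minus strand) had 25.6 and 27.2 CPM in the Veh libraries, 28.0 and 30.2 under RA, 20 and 20.4 under NR and 34.4 and 34.6 under NRRA. It was the lowest in NR and the highest in NRRA, with no overlap between groups. The log2 fold change was -0.38 in NR vs Veh (SE 0.076, adjusted p = 0.00018), 0.39 in NRRA vs Veh (SE 0.0688, adjusted p = 2.37e-05) and 0.77 in NRRA vs NR (SE 0.0696, adjusted p = 8.37e-10), the largest positive value of any member in any comparison. In CPM per kilobase of exon, the ratio of *Cdt1* to *Gmnn* was 1.8 and 1.46 in Veh, 1.71 and 1.64 in NR, 1.18 and 1.13 in RA, and 1.07 and 1.09 in NRRA. Both groups with retinoic acid thus lay below both groups without it, whatever the medium. In neither medium did both genes pass for retinoic acid. *Gmnn* did not pass in RA vs Veh (0.15, SE 0.0719, adjusted p = 0.1). *Cdt1* did not pass in NRRA vs NR, where its value was also positive (0.14, SE 0.0582, adjusted p = 0.0518).

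**Figure D3:**
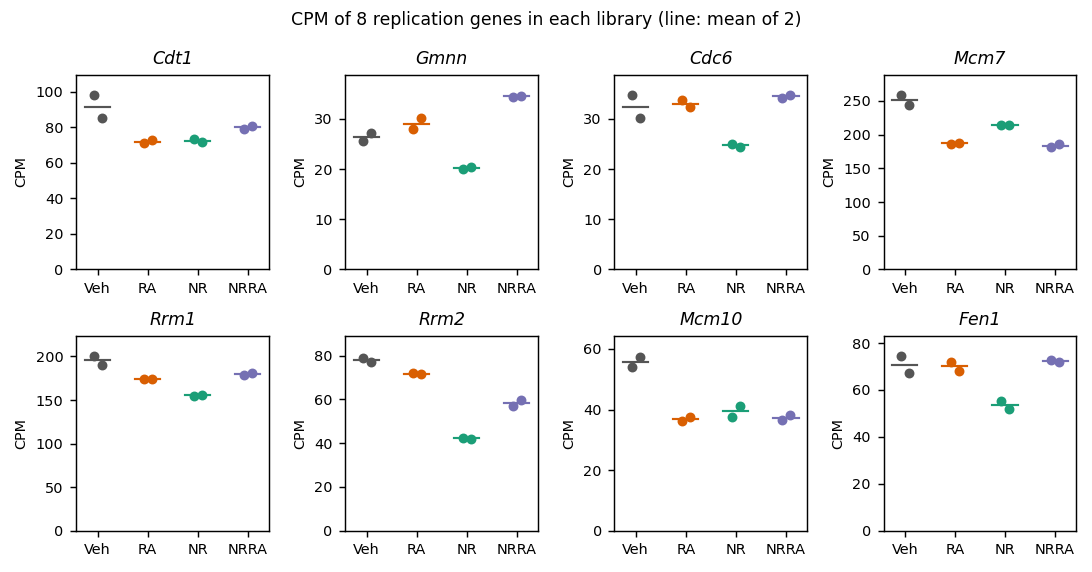
CPM (axis from 0) of 8 replication genes in each library, with a point per library and a line at the mean of 2. *Cdc6*, *Fen1* and *Rrm2* are lowest in NR, *Mcm10* is low in all 3 treatments, and *Gmnn* is highest in NRRA at 34.4 and 34.6 CPM.

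The 6 subunits of the MCM ring, the replicative helicase, were lower under all 3 treatments with 1 exception. All 6 were lower in NR and in NRRA than in Veh, and 5 were lower in RA, where *Mcm4* differed from Veh by -0.09 on the log2 scale (SE 0.0447, adjusted p = 0.131). The shares lower among the abundant genes were 33.5% in NR, 40.9% in NRRA and 35.2% in RA. The subunits fell into different orders by treatment. *Mcm7* (chr5:138164583-138172422, minus strand) had 259 and 244 CPM in the Veh libraries, 186 and 188 under RA, 215 and 215 under NR and 181 and 186 under NRRA. It differed from Veh by -0.43 in RA (SE 0.0437), -0.45 in NRRA (SE 0.0434) and -0.22 in NR (SE 0.0435), and NRRA was below NR by -0.23 (SE 0.0433, adjusted p = 0.000102). *Mcm6* had 200 and 199 CPM in the Veh libraries, 154 and 152 under RA, 163 and 165 under NR and 157 and 158 under NRRA, and *Mcm5* 185 and 181, 148 and 148, 151 and 154, and 145 and 148 in the same order. For both genes the 6 treated libraries lay well below Veh and near each other.

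*Mcm2*, *Mcm3* and *Mcm4* were lowest in NR. *Mcm2* (chr6:88883474-88898780, minus strand) had 278 and 252 CPM in the Veh libraries, 236 and 230 under RA, 211 and 210 under NR and 239 and 239 under NRRA. *Mcm3* had 185 and 180 CPM in the Veh libraries, 168 and 164 under RA, 141 and 143 under NR and 160 and 156 under NRRA. *Mcm4* had 174 and 183 CPM, 170 and 166, 143 and 143, and 155 and 154 in the same order of groups. For each of the 3 the NR libraries were below every other library, with log2 fold changes against Veh of -0.33, -0.36 and -0.31, and NRRA was higher than NR by 0.18, 0.15 and 0.11, the last with an adjusted p of 0.0476. Per kilobase of exon the highest of the 6 subunits exceeded the lowest by a factor of 1.47 and 1.52 in the Veh libraries, 1.44 and 1.42 under RA, 1.6 and 1.61 under NR and 1.28 and 1.27 under NRRA. The 6 levels were therefore closest to each other in NRRA.

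The 6 factors that load onto and activate the helicase did not move together. *Mcm10*, which acts at origin firing (chr2:4989714-5012791, minus strand), had 54.1 and 57.4 CPM in the Veh libraries, 36.3 and 37.5 under RA, 37.6 and 41.2 under NR and 36.4 and 38.2 under NRRA. All 6 treated libraries were below both Veh libraries, with log2 fold changes of -0.59 under RA (SE 0.0637, adjusted p = 2.7e-08), -0.50 under NR (SE 0.0633, adjusted p = 3.62e-07) and -0.58 under NRRA (SE 0.0621, adjusted p = 9.14e-09). *Gins3*, a subunit of the 4-part GINS complex, had 14.4 and 15.8 CPM in the Veh libraries, 9.99 and 10.7 under RA, 13.8 and 16.1 under NR and 9.9 and 10.2 under NRRA. It was lower in both groups with retinoic acid (-0.53 in RA and -0.58 in NRRA against Veh) and had a value of -0.01 in NR (SE 0.0983, adjusted p = 0.972). *Gins4* followed the same order with -0.25 in RA, -0.31 in NRRA and -0.08 in NR, the last with an adjusted p of 0.379.

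The remaining GINS subunits did not do so. *Gins1* passed in none of the 6 comparisons and had 11.4 to 13.6 CPM over the 8 libraries. *Gins2* had 53.1 and 50.6 CPM in the Veh libraries, 58.9 and 56.3 under RA, 62.2 and 65.2 under NR and 59.5 and 59.0 under NRRA, higher than Veh in every treated library, by 0.30 on the log2 scale under NR (SE 0.0576, adjusted p = 0.00013), 0.19 under NRRA (SE 0.0569, adjusted p = 0.00528) and 0.15 in RA (SE 0.0581, adjusted p = 0.0423). The call under RA was lost in 5 of the 8 fits that each left out 1 library, namely those without an RA library, an NRRA library or Veh replicate 2. Of the exon bases of *Gins2* 67.3% overlap *Gse1* on the opposite strand, and *Gse1* was higher in NR than in Veh by 0.34 (SE 0.0496), so that reads of the 2 genes cannot be told apart if strand was not used in counting. *Cdc45*, the partner of MCM and GINS in the active helicase, was lower in NR than in Veh by -0.23 (SE 0.0576, adjusted p = 0.00216) and 0.35 higher in NRRA than in NR (SE 0.0549, adjusted p = 7.61e-06).

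**Figure D4:**
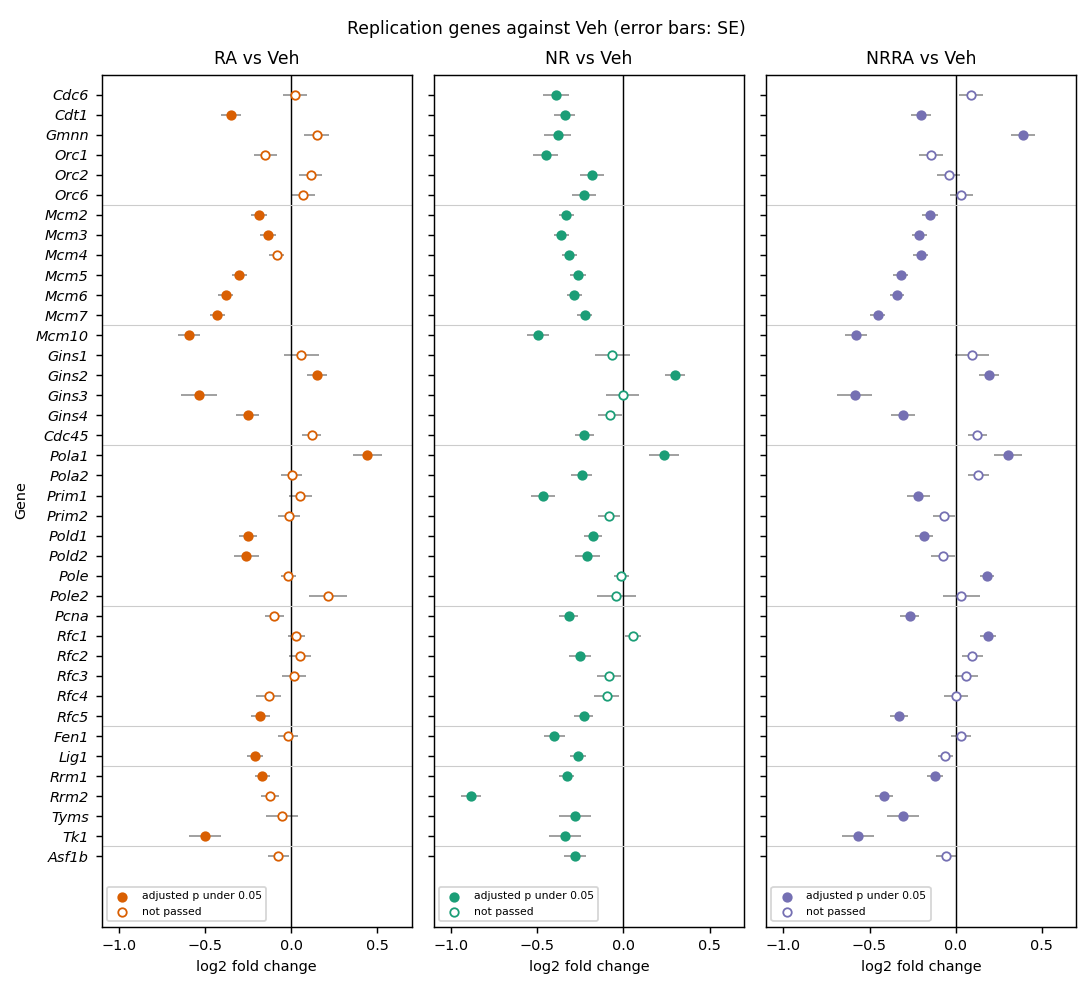
log2 fold change against Veh (horizontal axis, bars are the SE) of the 39 genes in RA, NR and NRRA, with filled points for an adjusted p under 0.05 in edgeR's quasi-likelihood test. In NR 28 genes are filled on the negative side, *Rrm2* farthest at -0.89, and 2 on the positive side.

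Among the 8 polymerase and primase genes, 4 were lower in NR (50%), beside 33.5% of the abundant genes, and *Pola1* went the other way. *Prim1*, the catalytic primase subunit (chr10:128015168-128030037), had 37.2 and 36.5 CPM in the Veh libraries, 38.1 and 38.3 under RA, 27.4 and 26 under NR and 30.2 and 33.1 under NRRA. Both restricted groups were below both groups in complete medium, with -0.47 in NR vs Veh (SE 0.0698, adjusted p = 4.04e-06) and -0.27 in NRRA vs RA (SE 0.0642, adjusted p = 0.00129). *Pola2*, the regulatory subunit of polymerase alpha, was lower in NR than in Veh by -0.24 (SE 0.0614) and higher in NRRA than in NR by 0.37 (SE 0.0582, adjusted p = 7.61e-06). *Pold1*, the catalytic subunit of polymerase delta, was lower in all 3 treatments (-0.25 in RA, -0.18 in NR and -0.18 in NRRA). *Pold2*, its partner, had 36.2 and 31.9 CPM in the Veh libraries, 29.5 and 27.6 under RA, 28.7 and 30.1 under NR and 31.8 and 32.8 under NRRA. It was lower in RA (-0.26, SE 0.0729) and in NR (-0.21, SE 0.0727), with NRRA overlapping Veh.

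*Pole*, the catalytic subunit of polymerase epsilon (chr5:110286306-110337474), had 195 and 189 CPM in the Veh libraries, 192 and 188 under RA, 190 and 190 under NR and 217 and 218 under NRRA. Only its NRRA libraries stood apart, higher than RA by 0.20 (SE 0.0417, adjusted p = 0.000375), than NR by 0.19 (SE 0.0417, adjusted p = 0.000451) and than Veh by 0.18 (SE 0.042, adjusted p = 0.000614). *Pola1*, the catalytic subunit of polymerase alpha (chrX:93304767-93632155, minus strand), had 16.2 and 18.6 CPM in the Veh libraries, 22.9 and 24.1 under RA, 19.8 and 21 under NR and 21.1 and 21.7 under NRRA. All 6 treated libraries were above both Veh libraries, with log2 fold changes of 0.44 under RA (SE 0.0843, adjusted p = 0.00012), 0.23 under NR (SE 0.0863, adjusted p = 0.0295) and 0.30 under NRRA (SE 0.0832, adjusted p = 0.00287). These directions depended on the correction: with each library's trend with GC content and gene length removed, the values were 0.18 in RA, which no longer passed, -0.01 in NR and -0.06 in NRRA. Without 1 library the value in NR ranged from 0.16 to 0.35 and did not pass without NR replicate 2 or Veh replicate 1, and that in NRRA did not pass without Veh replicate 1. The gene is long and has a low GC content (41.5%, beside a median of 49.7% over all tested genes). *Prim2* and *Pole2*, further subunits of primase and polymerase epsilon, passed in no comparison.

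The sliding clamp was lower under nutrient restriction, and its loader did not move as a whole. *Pcna* (chr2:132249162-132253314, minus strand) had 97.0 and 93.0 CPM in the Veh libraries, 89.6 and 88.0 under RA, 76.9 and 75.7 under NR and 75.4 and 82.4 under NRRA. Both restricted groups were below both groups in complete medium, by -0.32 in NR vs Veh (SE 0.0543, adjusted p = 2.84e-05) and -0.17 in NRRA vs RA (SE 0.0527, adjusted p = 0.0113). Of the 5 subunits of replication factor C, the loader, *Rfc2* was lower in NR (-0.25, SE 0.0641) and *Rfc5* in RA, NR and NRRA (-0.18, -0.23 and -0.33). *Rfc1*, the large subunit, was higher in NRRA than in Veh by 0.19 (SE 0.047, adjusted p = 0.00138), and *Rfc3* and *Rfc4* passed in no comparison. Exons of the other strand cover 15.1% of *Rfc2* (*Lat2*), 12.7% of *Rfc4* (*Eif4a2*) and 10.7% of *Rfc5* (*Wsb2*), and *Wsb2* itself was lower in NRRA than in Veh (-0.88, SE 0.0475).

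*Fen1* and *Lig1*, which trim and join Okazaki fragments, were both lower in NR than in Veh and higher in NRRA than in NR. *Fen1* (chr19:10199132-10204169, minus strand) had 74.4 and 67.2 CPM in the Veh libraries, 71.8 and 68.2 under RA, 55.5 and 52.1 under NR and 72.7 and 71.9 under NRRA, with both NR libraries below the other 6. The difference was -0.40 in NR vs Veh (SE 0.0602, adjusted p = 4.63e-06) and 0.43 in NRRA vs NR (SE 0.0581, adjusted p = 8.99e-07). The annotated gene *Gm10143* on the opposite strand covers 78.8% of the exon bases of *Fen1* and had between 0.949 and 0.966 of its raw count in every library. Reads of *Fen1* and *Gm10143* cannot be told apart if strand was not used in counting. *Lig1*, DNA ligase I, was lower in RA by -0.21 (SE 0.0461) and in NR by -0.26 (SE 0.0462), and NRRA differed from Veh by -0.06 (SE 0.0455, adjusted p = 0.268).

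Nucleotide supply genes held the value farthest from 0. *Rrm2*, the small subunit of ribonucleotide reductase, which makes deoxyribonucleotides and is made in S phase (chr12:24708241-24714146), had 79.1 and 76.9 CPM in the Veh libraries, 72.0 and 71.4 under RA, 42.4 and 42.0 under NR and 57.0 and 59.8 under NRRA. The 4 groups did not overlap, in the order Veh, RA, NRRA and NR, although RA vs Veh did not pass (-0.12, SE 0.0534, adjusted p = 0.0657). The log2 fold change was -0.89 in NR vs Veh (SE 0.0564, adjusted p = 7.56e-13), -0.42 in NRRA vs Veh (SE 0.0533, adjusted p = 1.96e-07), -0.29 in NRRA vs RA (SE 0.0528, adjusted p = 5.5e-05) and 0.47 in NRRA vs NR (SE 0.0559, adjusted p = 1.22e-07). *Rrm1*, the large subunit (chr7:102441695-102469771), had 201 and 190 CPM in the Veh libraries, 174 and 174 under RA, 155 and 156 under NR and 179 and 181 under NRRA, a smaller decrease in NR (-0.33, SE 0.0446). In CPM per kilobase the ratio of *Rrm2* to *Rrm1* was 1.56 and 1.61 in the Veh libraries, 1.64 and 1.63 under RA, 1.09 and 1.07 under NR and 1.26 and 1.32 under NRRA. The ratio was thus lower in both restricted groups.

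The thymidylate genes varied between the replicates of Veh and of NR. *Tk1*, the thymidine kinase of S phase, had 36.7 and 29.7 CPM in the Veh libraries, 22.4 and 24.4 under RA, 29.1 and 23.8 under NR and 22.6 and 22.2 under NRRA. Every treated library was below both Veh libraries, by -0.50 under RA (SE 0.0932, adjusted p = 9.04e-05), -0.34 under NR (SE 0.0921, adjusted p = 0.00395) and -0.57 under NRRA (SE 0.0912, adjusted p = 6.6e-06), and the value under RA was -0.31 without Veh replicate 1 and -0.62 without Veh replicate 2. *Tyms*, thymidylate synthase, had 23.5 and 28.9 CPM in the Veh libraries, 25.8 and 24.8 under RA, 23.4 and 19.9 under NR and 22.4 and 20 under NRRA. The restricted libraries were all below both libraries of each group in complete medium, with -0.28 in NR vs Veh (SE 0.0943, adjusted p = 0.0173) and -0.25 in NRRA vs RA (SE 0.0894, adjusted p = 0.0246), the latter not passing without either RA library or NRRA replicate 2. *Asf1b*, a histone chaperone of S phase, had 53.9 and 48.8 CPM in the Veh libraries, 47.7 and 49.8 under RA, 42.8 and 41.8 under NR and 50.8 and 48.1 under NRRA, and was lower in NR (-0.28, SE 0.0635, adjusted p = 0.000708).

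Nutrient restriction in the presence of retinoic acid changed few of these genes. In NRRA vs RA, 6 of 39 were higher (15.4%) and 6 lower (15.4%), beside 20.9% and 19.4% of all tested genes, and the median was 0.01, or -0.04 with the GC and length trend removed. The genes lower in NRRA were *Mcm4*, *Pcna*, *Rfc5*, *Prim1*, *Rrm2* and *Tyms*, and those higher were *Cdt1*, *Gmnn*, *Rfc1*, *Pold2*, *Pole* and *Lig1*. Leaving out any 1 of the RA or NRRA libraries brought these counts to 2 or 3 each. *Pold2* was higher by 0.19 (SE 0.0697, adjusted p = 0.0353), which did not pass in 5 of the 8 fits without 1 library (either NR or NRRA library, or RA replicate 2). *Prim1* no longer passed without NRRA replicate 1. *Gmnn* was higher by 0.24 (SE 0.0657, adjusted p = 0.00416), a call lost without RA replicate 1. No member passed with 2-fold or more, beside 8.29% of all tested genes.

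In restricted medium, many of the genes were higher with retinoic acid than without it. In NRRA vs NR, 18 of 39 were higher (46.2%), beside 21.3% of all tested genes and 24.8% of the abundant ones, and 4 were lower (10.3%), beside 22.1%. The median log2 fold change was 0.14, beside 0.01 for all tested genes. The genes lower were *Mcm7*, *Gins3*, *Gins4* and *Tk1*, of which *Tk1* (-0.23, SE 0.092, adjusted p = 0.0458) did not pass without either RA library, either NRRA library or NR replicate 1, its value lying between -0.39 and -0.10. The comparison uses the same NR libraries as NR vs Veh. None passed with 2-fold or more, beside 8.7% of all tested genes.

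The effect of retinoic acid on these genes differed with the medium. The interaction, that is the effect of retinoic acid in restricted medium less its effect in complete medium, on the log2 scale, was positive and passed for 22 of 39 genes (56.4%), beside 6.37% of all tested genes and 9.76% of the abundant ones. It was negative for 2 (*Gins2* and *Pola1*), beside 6.58%. The median was 0.23 against 0.02 over all tested genes, and 35 of the 39 values were positive. No member reached 2-fold, beside 2.24% of all tested genes. The interaction uses the same Veh and NR libraries as NR vs Veh, so that the 2 are not independent. Of the 22 genes with a positive interaction, 21 were also lower in NR than in Veh. The largest values were 0.62 for *Gmnn* (SE 0.1, adjusted p = 7.39e-05), 0.59 for *Rrm2* (SE 0.0773, adjusted p = 3.75e-06) and 0.51 for *Mcm10* (SE 0.0898, adjusted p = 0.000229). All 6 MCM subunits passed, from 0.20 to 0.37, as did *Cdc6*, *Cdt1*, *Gmnn* and *Orc1* among the 6 licensing genes and *Fen1* and *Lig1*, against 1 of 6 clamp and loader genes. The count of 22 was 12 without NR replicate 1, 14 without NRRA replicate 2 and 16 in DESeq2. The call of *Gins2* (-0.25) was lost in 5 of the 8 fits without 1 library (either RA or NRRA library, or NR replicate 2). That of *Pola1* (-0.37) was also lost in 5 (either NRRA library, RA replicate 2, NR replicate 2 or Veh replicate 1), and with the GC and length trend removed (-0.24).

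A positive interaction took different forms. For *Gmnn*, *Rrm2*, *Cdc6* and *Fen1*, the value of RA vs Veh did not pass and NRRA vs NR was higher. *Mcm2*, *Mcm3*, *Rrm1* and *Lig1* were lower with retinoic acid in complete medium and higher with it in restricted medium. *Mcm5*, *Mcm6* and *Mcm10* were lower with it in complete medium, and in restricted medium the value did not pass (-0.05, -0.06 and -0.08). *Mcm7* was lower with it in both media, more so in complete medium.

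**Figure D5:**
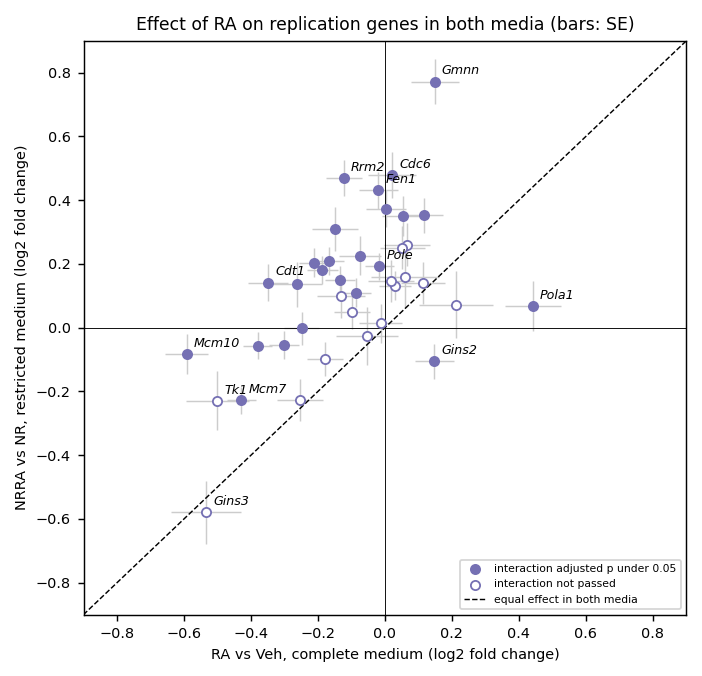
Effect of retinoic acid on each gene in complete medium (horizontal axis, RA vs Veh, log2 fold change) and in restricted medium (vertical axis, NRRA vs NR), with SE bars. Filled points are the 24 genes whose interaction passed; 22 lie above the dashed line of equal effect, led by *Gmnn*, and *Gins2* and *Pola1* lie below it.

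A further list covered other genes of the same process. Of 44 further replication genes, 12 were lower (27.3%) and 6 higher (13.6%) in NR than in Veh, beside 22.2% and 21.7% of all tested genes. In RA 10 were lower (22.7%) and 9 higher (20.5%), beside 23.4% and 19.8%, and in NRRA 13 were lower and 13 higher (29.5% each), beside 28.7% and 30.1%. The shares in RA and NRRA were near those of all genes. In NR the share of lower genes (27.3%) was a little above that of all genes (22.2%). It was far below the 71.8% of the replication genes described first. Among the abundant genes 33.5% were lower in NR, 35.2% in RA and 40.9% in NRRA, above the share of this list each time. The medians of the list were -0.11 in NR, -0.04 in RA and -0.01 in NRRA, and 33 of the 44 values in NR were negative. *Dut*, which keeps uracil out of DNA by removing dUTP, had 55.0 and 58.8 CPM in Veh and 40.6 and 40.5 in NR (-0.49, SE 0.0598). *Rrm2b*, the alternative small subunit of ribonucleotide reductase, had 9.01 and 11.4 CPM in the Veh libraries, 16.8 and 18.1 under RA, 14.2 and 12.6 under NR and 17.8 and 16.6 under NRRA. It was higher in NR by 0.39 (SE 0.113, adjusted p = 0.00683) and in NRRA by 0.75 (SE 0.106, adjusted p = 8.23e-07). *Chtf18*, of an alternative clamp loader, was higher in NR by 0.34 (SE 0.0677), and *Atad5*, which unloads *Pcna*, was higher in NRRA by 0.98 (SE 0.0722). *Chaf1b*, of the chromatin assembly factor that binds *Pcna*, had 47.4 and 44.0 CPM in the Veh libraries, 24.2 and 25.7 under RA, 57.0 and 57.9 under NR and 19.3 and 19 under NRRA, lower in NRRA than in Veh by -1.26 (SE 0.0675, adjusted p = 1.03e-14). *Samhd1*, which degrades deoxyribonucleotides, was lower in NRRA by -0.63 (SE 0.0469). In the interaction, 6 of the 44 were higher (13.6%) and 1 lower (2.27%), beside 6.37% and 6.58% of all tested genes. In NRRA vs NR 15 were higher (34.1%) and 7 lower (15.9%), beside 21.3% and 22.1%, and in NRRA vs RA 11 were higher and 11 lower (25% each), beside 20.9% and 19.4%.

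Regulators of entry into S phase were also measured. Of 21 E2F factors, pocket proteins and cyclins with their partners, 10 were lower (47.6%) and 4 higher (19%) in NR than in Veh, beside 22.2% and 21.7% of all tested genes. In RA 4 were lower (19%) and 7 higher (33.3%), beside 23.4% and 19.8%, and in NRRA 7 were lower (33.3%) and 8 higher (38.1%), beside 28.7% and 30.1%. Among the 11144 abundant genes 33.5% were lower and 25.5% higher in NR, 35.2% and 21.8% in RA, and 40.9% and 31.6% in NRRA. The share of lower regulators was thus above that of abundant genes in NR and below it in RA and NRRA. *E2f8*, a repressive E2F factor, had 37.3 and 40.0 CPM in the Veh libraries, 38.1 and 37.8 under RA, 19 and 20 under NR and 27.0 and 26.5 under NRRA, the same order of group means as *Rrm2*, with -0.99 under NR (SE 0.0713, adjusted p = 1.03e-11) and -0.53 under NRRA (SE 0.066). *Ccne1*, the cyclin E that drives entry into S phase, was lower in NR by -0.68 (SE 0.0745). In NRRA *Ccne1* differed from Veh by -0.10 (SE 0.0683, adjusted p = 0.208). Its paralogue *Ccne2* was higher in NR by 0.27 (SE 0.0981, adjusted p = 0.0266) and in NRRA by 0.94 (SE 0.0896). *Rb1*, the pocket protein that holds back E2F activity, had 45.9 and 49.2 CPM in the Veh libraries, 61.3 and 61.9 under RA, 69.3 and 61.5 under NR and 72.8 and 70.9 under NRRA, above Veh in every treated library by 0.46 in NR (SE 0.063) and 0.60 in NRRA (SE 0.0614). *Tfdp2*, a partner of E2F factors, was higher in NR by 0.31 (SE 0.062), and *E2f6*, another repressive E2F factor, was lower in NRRA by -0.45 (SE 0.0589). In the interaction 8 of the 21 were higher (38.1%), beside 6.37% of all tested genes. In NRRA vs NR 10 were higher (47.6%) and 2 lower (9.52%), beside 21.3% and 22.1%, and in NRRA vs RA 5 were higher (23.8%) and 4 lower (19%), beside 20.9% and 19.4%.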

How the data were processed

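The authors deposited a table of counts, whole numbers of reads per gene without normalization, for 8 libraries of poly(A) RNA. The submitters' processing notes name mm10, STAR 2.6.1c and featureCounts 1.6.4. The use of strand in counting is not given in the sources used here. The library protocol marks strand, and 7 members share at least 10% of their exon bases with a gene on the other strand. The 8 columns were matched to libraries by their labels.

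Groups came from the labels. The paper describes the 2 libraries of each group as independent biological replicates. Counts were filtered with filterByExpr, scaled with TMM and fitted in edgeR 4.0.16 (R 4.3.3), with 1 coefficient per group over all 8 libraries and 4 residual degrees of freedom. The quasi-likelihood F test compared RA, NR and NRRA with Veh, NRRA with RA and with NR, and the effects of RA in both media (the interaction). Adjustment was by Benjamini-Hochberg over all 20477 tested genes. CPM used the TMM-scaled library totals. Each SE was obtained by dividing the size of the log2 fold change by the square root of F. Coordinates, exon overlaps, exon lengths and GC content came from GENCODE M21 on GRCm38, which holds 55240 of the 55421 identifiers, and GC content was known for 20448 tested genes.

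Alternatives were DESeq2 1.42.0 (its size factors and its test), no filter on low counts, the replicate number as a block, removal of each library's trend with GC content and length, both together, and leaving out each library. Leaving out the members with exon overlaps was added after seeing the data. On simulated data for NR vs Veh, 80 of 100 genes changed by 0.5 on the log2 scale and 95 of 100 changed by 1 were recovered among 19933 genes, with 10 false calls. Far fewer genes were changed there than in the data, where 22.2% were lower and 21.7% higher in NR. Smaller changes, such as the members' median of -0.25 in NR, and the interaction were not simulated.

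Per-library values are given for the members with the 3 largest positive and 3 largest negative changes that passed in each comparison and for the main licensing, helicase, clamp, nucleotide and chaperone genes. From the further lists, the 2 largest changes that passed in each direction in NR vs Veh and NRRA vs Veh are named, except 1 gene that is not reported here. *Gins4*, *Pold1*, *Pola2*, *Cdc45*, *Orc2*, *Orc6*, *Lig1* and the other members are described by their fitted values. The members and lists were chosen with earlier results of these data known. No resampling or set test was made.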

Additional observations from a re-analysis of the deposited data

Results flagged for a closer look

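The effect of retinoic acid differed between restricted and complete medium, by the test of the interaction, for 24 of the 39 genes. The difference was positive for 22 (56.4%) and negative for 2 (5.13%), beside 6.37% and 6.58% of all tested genes. Of the 22, 21 were also lower in NR than in Veh, a comparison that shares libraries with the interaction. DESeq2 called 16 positive and 0 negative. Given as the effect in restricted medium minus that in complete medium on the log2 scale, the difference was 0.624 for *Gmnn*, 0.592 for *Rrm2*, 0.509 for *Mcm10*, 0.491 for *Cdt1*, 0.458 for *Orc1*, 0.457 for *Cdc6*, 0.450 for *Fen1* and 0.416 for *Lig1*. These 8 genes spanned licensing, helicase activation, strand joining and nucleotide supply. It was 0.397 for *Pold2*, 0.376 for *Rrm1*, 0.370 for *Pola2*, 0.368 for *Mcm2*, 0.324 for *Mcm6*, 0.299 for *Asf1b*, 0.298 for *Rfc2*, 0.284 for *Mcm3*, 0.248 for *Mcm5* and 0.246 for *Pold1*. The smallest positive differences were 0.234 for *Cdc45*, 0.210 for *Pole*, 0.201 for *Mcm7* and 0.195 for *Mcm4*, and the negative ones were -0.254 for *Gins2* and -0.373 for *Pola1*. The fibroblast markers summed to 18059 to 20889 CPM in the restricted libraries and 7597 to 9417 CPM in the others. Their part in these differences was not tested.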

How the results depend on the processing

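Of 462 alternative values for the 33 differences of single members, 408 kept direction and side of the threshold, 50 no longer passed and 4 turned direction, all of *Pola1*. With the GC and length trend removed it was -0.005 in NR and -0.059 in NRRA, and -0.007 and -0.060 with the replicate block as well. DESeq2 gave 1 member higher in RA, 1 in NR, 3 in NRRA vs RA and 0 with a lower interaction. Without the filter on low counts 1 was higher in RA and 1 interaction was lower. With the GC and length trend removed 1 was higher in NR, 10 were lower in NRRA vs RA and 1 interaction was lower, and the block with that correction gave the same counts. Without the 7 members with exon overlaps 1 was higher in RA, 1 in NR, and 1 interaction was lower, since *Gins2* was among those left out. The cause of the other differences was not tested. Leaving out 1 library gave 1 to 4 members higher and 9 to 15 lower in RA, 1 to 2 and 22 to 28 in NR, 5 to 7 and 14 to 18 in NRRA, 2 to 6 and 2 to 8 in NRRA vs RA, 12 to 19 and 2 to 6 in NRRA vs NR, and 12 to 22 and 0 to 2 in the interaction.

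Replicate numbers were not shown to pair the samples. The deviations of same-numbered libraries correlated between -0.0334 and 0.0225. With the replicate block 17 members were higher in NRRA vs NR and 21 in the interaction, against 18 and 22, and the other counts were equal. With 2 libraries a group and changes under 2-fold, the values that did not pass do not show equality.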
